A study of Homo sapiens with 6 samples.

Results

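The cytoplasmic ribosomal protein genes were examined in PA1 cells after knockdown of the transcription factor SOX2. Membership was set by symbol, though the family was picked with earlier results of these data known. The rule took every symbol in the count table that reads RPL or RPS followed by a number, with an optional A or X. It also took RPLP0, RPLP1, RPLP2 and RPSA. This gave 77 genes of 59653 symbols, 46 of the large ribosomal subunit and 31 of the small. All 77 passed the filter on low counts and were tested. FAU and RACK1, which also encode ribosomal proteins but do not carry such names, are described separately.

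PA1 is an established human ovarian teratocarcinoma line with a wildtype genotype per the labels, and it expresses SOX2. The 6 mRNA libraries were 3 of cells given a negative control small interfering RNA (siRNA) and 3 of cells given siRNA against SOX2, for which 2 siRNAs are named without saying whether they were mixed. Both groups were transfected while attached to plastic, moved after 24 h onto plates coated with poly-HEMA, which cells cannot attach to, and grown for 72 h without anchorage. A single line and a transient knockdown limit the groups as a model. Nothing in the labels says that the replicates were separate cultures, so p-values measure the spread between these libraries, which may be technical.

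Ribosomal proteins join with ribosomal RNA to form the large subunit, which makes peptide bonds, and the small subunit, which reads the messenger RNA. Each protein enters the ribosome in a fixed number of copies, and surplus free protein is degraded. Their mRNAs are among the most abundant of a growing cell and typically begin with a C followed by a run of pyrimidines, the terminal oligopyrimidine tract, through which the mTOR kinase adjusts how well they are translated. mRNA abundance, which was measured here, does not show that layer of control.

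The starts of the 8 ribosomal protein genes whose changes were called most steadily (below) are shown. An oligopyrimidine tract at the start is typical of the family, though not every annotated start carries one. Each run is 30 bases on the gene's own strand, 15 before the annotated start and 15 from it, taken from RefSeq promoters on GRCh38.p14. Capitals mark the unbroken run of C or T that begins at the start. The windows lie at chr4:108620561-108620590 (+) for RPL34, chr16:89560667-89560696 (+) for RPL13, chr4:151099613-151099642 (+) for RPS3A and chr3:51995881-51995910 (-) for RPL29, which were higher after SOX2 siRNA. Those of the lower genes lie at chr9:127451392-127451421 (-) for RPL12 and chr19:39435935-39435964 (-) for RPS16.
RPL34: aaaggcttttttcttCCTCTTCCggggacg
RPL13: ttgcggggccgcttcCTTTCCgctcggctg
RPS3A: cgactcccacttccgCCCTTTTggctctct
RPL29: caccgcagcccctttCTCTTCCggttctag
RPL12: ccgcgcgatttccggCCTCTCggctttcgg
RPS16: gtggcccctagctttCCTTTTCCggttgcg

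RPL9 and RPL15, both higher, have no such run at their annotated starts, at chr4:39458908-39458937 (-) and, for the first listed of 3 RPL15 starts, at chr3:23916530-23916559 (+).
RPL9: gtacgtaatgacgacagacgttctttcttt
RPL15: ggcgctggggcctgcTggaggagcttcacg

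RPL13 has 3 annotated starts and RPL34 has 2, and the one shown is the one that carries the run. A tract at the start was therefore seen both in genes that were higher and in genes that were lower. The table held 62 of the 77 genes, 10 of them with several starts. A C followed by at least 4 further bases of C or T stood at an annotated start of 46 of the 62 (74.2%), against 1404 of all 27305 genes in the table (5.14%). Counted by start, the shares were 59.7% of 77 starts and 4.07% of 35116. The runs were 5 to 19 bases long, with a median of 8.0. Only runs that begin at an annotated start were counted, so a run a few bases downstream, such as that in the RPL9 window, was missed. A gene without a counted run is therefore not shown to lack the tract. The tract was found in 8 of the 11 listed genes called higher, in 5 of 5 called lower and in 33 of 46 not called.

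Letters within 300 bases around the start (250 before, 50 after) were searched on both strands, with overlaps allowed. CCGGAAG, the core bound by ETS factors such as GABPA, was found in 22 of the 62 genes (35.5%) and in 12.2% of all genes. AAGATGG, part of the YY1 motif, was found in 8 (12.9%) against 7.11%, and TATAAA in 5 (8.06%) against 14%. ACAATG, a core of SOX-family motifs, was found in 2 of the 62 (3.23%), against 13% of all genes. A match is a description of these letters and not a measured binding site.

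Libraries held between 25152313 and 32753184 counts, and 3 counts equalled 0.0909 to 0.12 CPM (each gene's counts relative to the library's total, with TMM factors of 0.9915 to 1.009). SOX2 had 245, 265 and 256 CPM in the control libraries and 51.8, 54.9 and 50.6 CPM after SOX2 siRNA, which left 20.5% of the control mean (log2 fold change -2.28; edgeR adjusted p = 5.97e-16; exact two-sided permutation p = 0.1, the smallest that 3 against 3 libraries allow). The cells carried most of the pluripotent markers listed, with POU5F1 at 301 ± 18.6 CPM and LIN28A at 706 ± 3.61 CPM in control. But L1TD1 and DPPA4 were low, at 1.79 ± 0.921 and 3.05 ± 0.0272 CPM in control, and TDGF1 and ZFP42 had at most 3 counts in any library. Summed over all 12 pluripotent markers, levels were 3108 to 3161 CPM in control and 2882 to 2951 CPM after SOX2 siRNA. The list includes the siRNA target SOX2, so part of the fall in the sum was the knockdown itself. A sum without SOX2 was not made. Of 10 tested, 4 were called higher and 2 lower, where 14.8% of all tested genes were called higher and 13.4% lower. The 2 lower were SOX2, with means of 255 and 52.5 CPM, and PODXL, with means of 1316 and 671 CPM. Of 8 stromal markers, 5 were tested and 3 were higher, with sums of 403 to 453 and 518 to 559 CPM and DPT at 0 in every library. Of 6 endothelial markers, 5 were tested and all 5 were lower, with sums of 126 to 131 and 94.8 to 98.7 CPM and CLDN5 at 0. Of 8 blood markers, 2 were tested and CD14 was higher, with sums of 2.77 to 15.2 and 2.41 to 18.9 CPM, of which LYZ made up most, and HBB at 0. The calls of CD14 and of the endothelial gene TEK were lost whichever library was left out. The part of these markers in the results was not tested.

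Ribosomal protein genes as a family took a like share of the libraries in both groups. They held 5.07%, 4.84% and 4.99% of all counts in the control libraries, in replicate order. After SOX2 siRNA they held 4.91%, 5.0% and 5.06%. The groups overlapped, and their means of 4.97% ± 0.119 and 4.99% ± 0.0751 (SD, n = 3) differed by less than either spread. In bulk samples such as these, fewer cells of a type and less RNA per cell cannot be told apart. CPM values are shares of a library, so a change of all transcripts together would not appear in them.

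The balance of the subunits did not differ beyond the spread between libraries. Large subunit genes held 3.04% ± 0.0622 of counts in control and 3.05% ± 0.0423 after SOX2 siRNA, and small subunit genes held 1.93% ± 0.0569 and 1.94% ± 0.0334 (SD, n = 3). The ratio of large to small subunit counts was 1.56, 1.59 and 1.57 in the control libraries and 1.57, 1.58 and 1.56 after knockdown. The ratios overlapped between the groups. Mitochondrially encoded genes, which also take a large share of counts, were at 6.73% ± 0.299 and 6.55% ± 0.0731 (SD, n = 3).

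The family varied more between libraries of a group than between the groups. As a median over the 77 genes, the log2 CPM of a library relative to each gene's mean over the 6 libraries was 0.0162, -0.0476 and -0.00329 in control, in replicate order. It was -0.0272, 0.0139 and 0.0406 after SOX2 siRNA. The range of these medians was 0.0637 within control and 0.0678 within SOX2 siRNA libraries, against a median log2 fold change between the groups of 0.00945. Control replicate 2 was the lowest control library for 60 of the 77 genes. SOX2 siRNA replicate 1 was the lowest of its group for 68, and SOX2 siRNA replicate 3 was the highest for 52. Large and small subunit genes shifted alike, with medians of -0.0444 and -0.0531 in control replicate 2 and of 0.0381 and 0.0482 in SOX2 siRNA replicate 3. What moved these libraries was not tested.

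**Figure D1:**
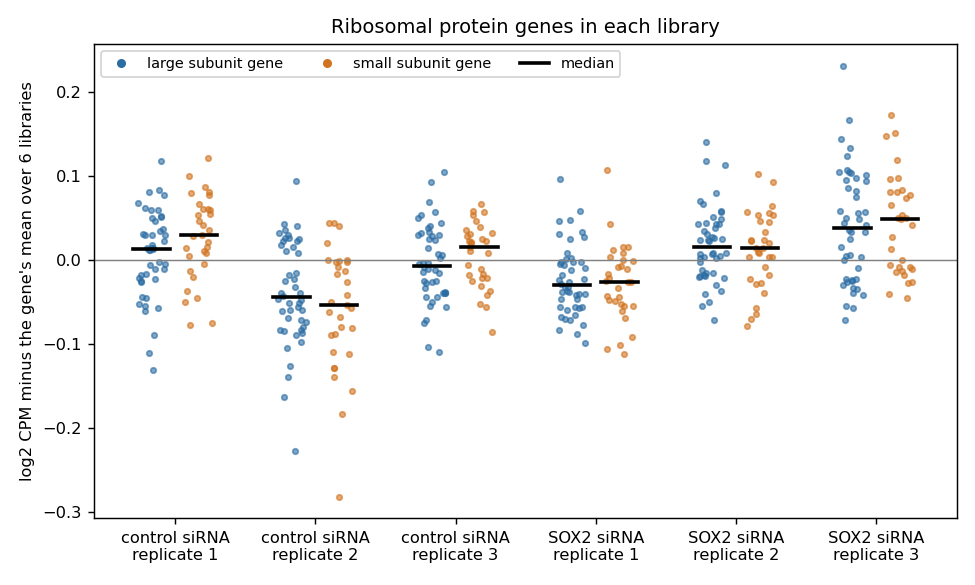
Each point is 1 ribosomal protein gene in 1 library: the vertical axis is its log2 CPM minus its mean over the 6 libraries, by subunit, and black lines are medians. Control replicate 2 and SOX2 siRNA replicate 1 sit below the other libraries of their groups, with both subunits shifted together.

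Gene by gene, 18 of the 77 ribosomal protein genes passed the test (23.4%), beside 28.2% of all tested genes. The test was edgeR's quasi-likelihood test, with Benjamini-Hochberg adjustment over 17592 genes and a threshold of 0.05. Of the 18, 13 were higher after SOX2 siRNA (16.9% of the family, beside 14.8% of all tested genes) and 5 were lower (6.49%, beside 13.4%). This split depended on scaling: upper-quartile factors gave 11 higher and 12 lower, and total counts alone gave 13 higher and 10 lower. The share called depended on the fit as well. With offsets for GC and length 28 members were called, beside 5317 genes in all, a larger share than that of all genes. Log2 fold changes ran from -0.16 to 0.31, that is from 10.6% lower to 24.1% higher, and 57 of the 77 lay within 0.1 of zero. Only RPL34 reached a 1.2-fold change. The family's median was 0.00945 (middle 50% of genes, -0.0457 to 0.0759), beside -0.000851 for all tested genes (-0.15 to 0.14).

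For 28 members the 2 groups' libraries stood fully apart (36.4%, beside 41.8% of all tested genes), with 15 higher and 13 lower. All 18 called genes were among them. For the 59 genes not called, 95% intervals reached at most from 11.1% lower to 30.5% higher, and for 56 of them the whole interval lay within a log2 change of 0.2 (14.9%) either way. The widest interval was that of RPS29. The least counted member had 2947 counts in its lowest library. The standard error of the log2 fold change had a median of 0.0357.

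**Figure D2:**
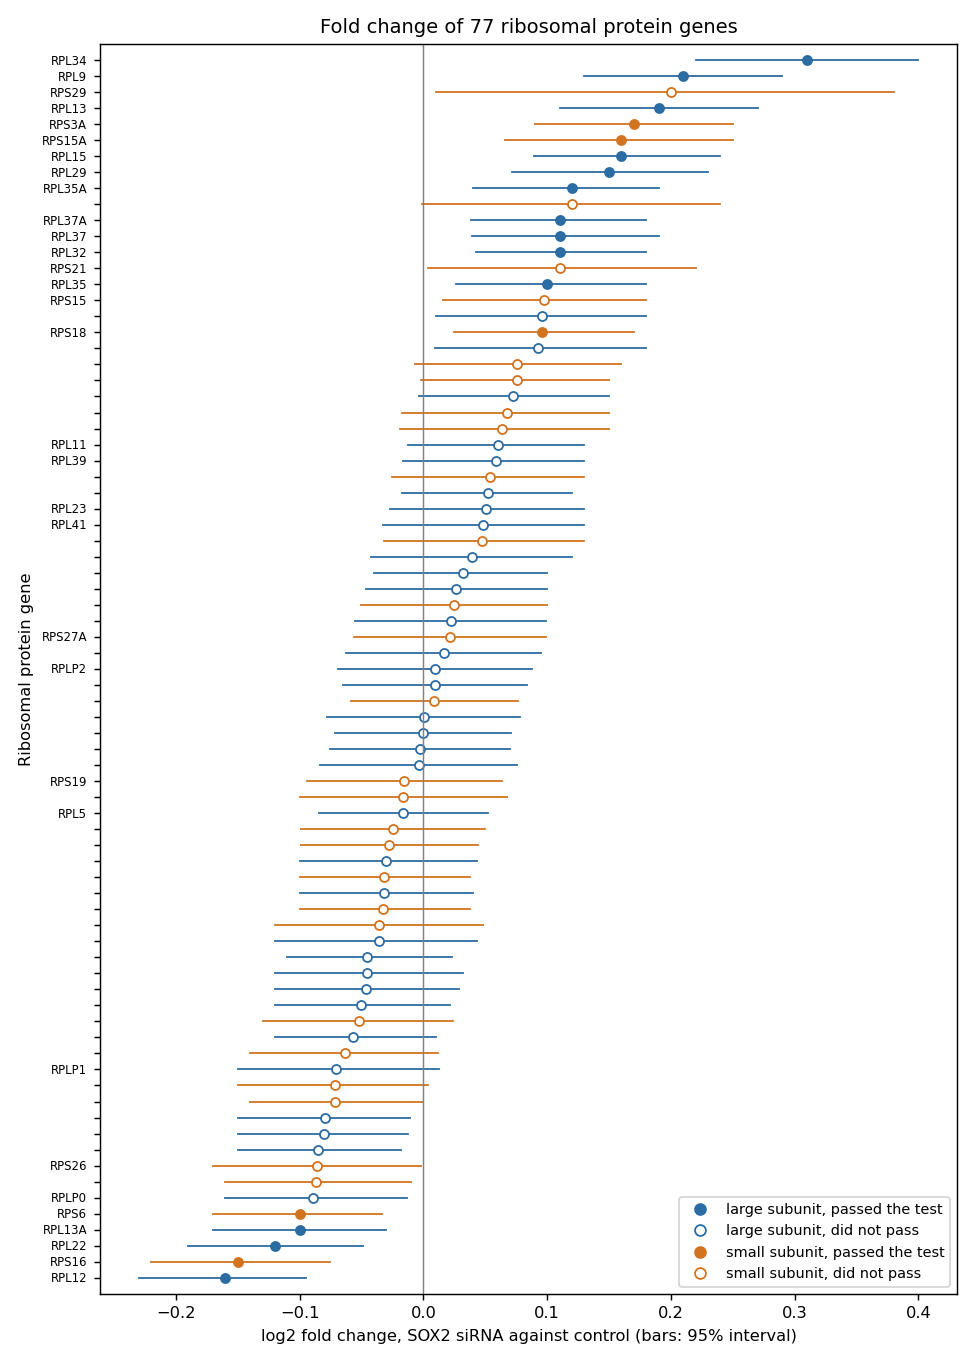
Log2 fold change of each of the 77 ribosomal protein genes after SOX2 siRNA against control (horizontal axis), with 95% intervals from edgeR. Colour gives the subunit, and filled points passed the test. Labels mark the genes that passed and some of the others described in the text. Points run from -0.16 (RPL12) to 0.31 (RPL34), and RPS29 at 0.20 has the widest interval.

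Leaving out single libraries changed the count. Without control replicate 2 there were 6 higher and 8 lower, and without SOX2 siRNA replicate 2 there were 7 higher and 2 lower. Without SOX2 siRNA replicate 3 there were 7 higher and 6 lower. Without control replicates 1 and 3 in turn, there were 13 and 10 higher and 3 and 2 lower, and without SOX2 siRNA replicate 1 there were 17 higher and 3 lower. Calls over all genes also fell, from 4964 to 4549, 3824 and 3914 without control replicates 1, 2 and 3. Without SOX2 siRNA replicates 1, 2 and 3 they were 4863, 3760 and 4294. All 18 genes kept their sign under all 19 alternatives of scaling, filter, test and libraries. The 8 genes called under every one of these were RPL34, RPL9, RPL13, RPS3A, RPL15 and RPL29, which were higher, and RPL12 and RPS16, which were lower.

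RPL34, a large subunit protein, changed most. It stood at 217, 203 and 220.3 CPM in the control libraries and at 254, 262 and 279 CPM after SOX2 siRNA. The lowest knockdown library was above every control library. The log2 fold change was 0.31 (SE 0.0419, 95% interval 0.22 to 0.40; edgeR adjusted p = 2.18e-05). The next largest called change was that of RPL9, also of the large subunit, with 589, 574 and 583 CPM in control and 641, 679.8 and 703 CPM after SOX2 siRNA. The control libraries were close together and all lower (log2 fold change 0.21, SE 0.0369; edgeR adjusted p = 0.000289). RPL9 shares exon sequence on the opposite strand with LIAS, the lipoyl synthase gene, and the use of strand in counting is not given in the sources used here. LIAS was at 17.6 ± 0.873 and 15.7 ± 0.836 CPM (SD, n = 3), low beside RPL9.

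RPL13, a large subunit protein, had 485, 447 and 475 CPM in control and 521, 529 and 553 CPM after SOX2 siRNA. Its groups were apart although its control libraries spread widely (log2 fold change 0.19, SE 0.0378; edgeR adjusted p = 0.00115). RPS3A, the small subunit member with the largest called change, had 1284, 1237 and 1304 CPM in control and 1363, 1442 and 1501 CPM after SOX2 siRNA. Its lowest knockdown library, replicate 1, was still above the highest control library (log2 fold change 0.17, SE 0.0383; edgeR adjusted p = 0.00267). RPL15, a large subunit protein changed in some families with Diamond-Blackfan anaemia, had 1200.2, 1211 and 1262 CPM in control and 1321, 1401 and 1393 CPM after SOX2 siRNA, again without overlap (log2 fold change 0.16, SE 0.0353; edgeR adjusted p = 0.00195). It overlaps NKIRAS1 on the opposite strand, which was at 11.8 ± 0.855 and 11.8 ± 1.16 CPM (SD, n = 3). RPL29, a large subunit protein, had 413, 391 and 423 CPM in control and 445, 452 and 464 CPM after SOX2 siRNA. Here too every knockdown library was the higher (log2 fold change 0.15, SE 0.0364; edgeR adjusted p = 0.00519).

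Of the lower genes, RPL12 forms the base of the stalk on the large subunit that receives the translation factors. It had 662, 669.6 and 658 CPM in control and 586, 597 and 597 CPM after SOX2 siRNA. Both groups were tight and lay well apart (log2 fold change -0.16, SE 0.0316, the smallest of the family; edgeR adjusted p = 0.000868). RPS16, whose protein lies near the decoding site of the small subunit, had 426, 404 and 408 CPM in control and 364, 371 and 381 CPM after SOX2 siRNA. The highest knockdown library stayed below the lowest control library (log2 fold change -0.15, SE 0.0348; edgeR adjusted p = 0.00355).

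**Figure D3:**
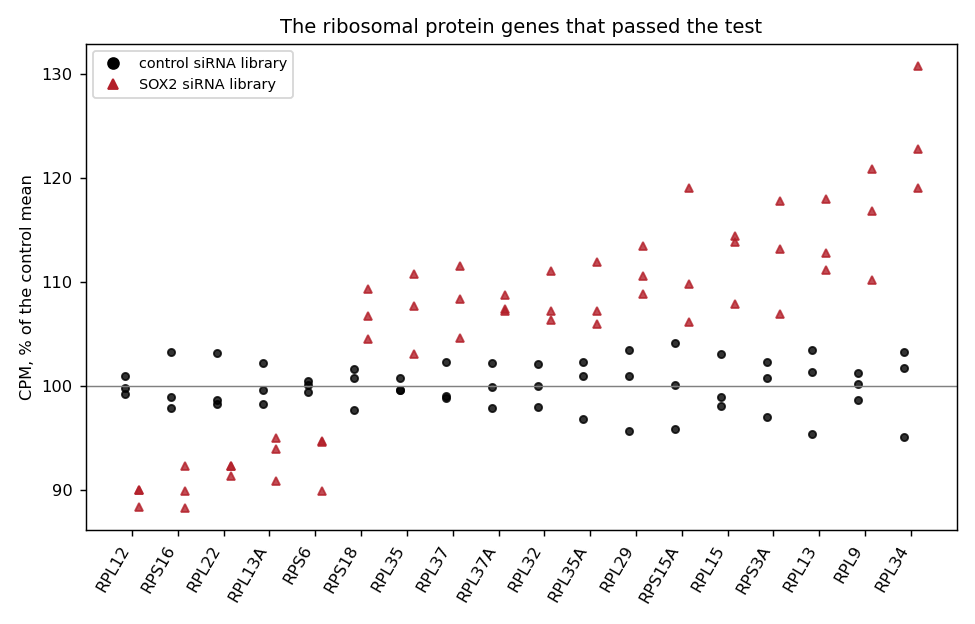
CPM of each library as a percentage of the gene's control mean (vertical axis) for the 18 ribosomal protein genes that passed the test, ordered by fold change. Black circles are the 3 control libraries and red triangles the 3 SOX2 siRNA libraries, and in none of the 18 genes do they overlap.

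The other 10 called genes lost the call when some single library was left out. RPL22, a large subunit protein that also binds other RNAs, had 417, 419 and 438 CPM in control and 388, 392 and 392 CPM after SOX2 siRNA (log2 fold change -0.12, SE 0.0334; edgeR adjusted p = 0.0124). Its knockdown libraries were nearly equal and all lower. Without control replicate 3 the adjusted p was 0.0854, and without SOX2 siRNA replicate 2 it was 0.052. RPS6, the small subunit protein phosphorylated by S6 kinase downstream of mTOR, had 1235, 1222 and 1229.8 CPM in control and 1105, 1162 and 1164 CPM after SOX2 siRNA (log2 fold change -0.10; edgeR adjusted p = 0.0266). RPL13A, known also for a role in silencing inflammatory transcripts outside the ribosome, was at 1290.5 ± 25.5 and 1203 ± 28.4 CPM (log2 fold change -0.10; edgeR adjusted p = 0.0316). The calls of RPS6 and RPL13A were each lost without control replicate 1 or 3 or SOX2 siRNA replicate 1 or 2.

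Among the less steady increases, RPS15A had the largest, with 476, 456 and 495 CPM in control and 505, 522 and 566 CPM after SOX2 siRNA (log2 fold change 0.16; edgeR adjusted p = 0.0124). Its groups did not overlap, and the call was lost without control replicate 1 or 2 or SOX2 siRNA replicate 3. RPL35A, a large subunit protein changed in Diamond-Blackfan anaemia, was at 383 ± 11.2 and 415 ± 11.9 CPM (log2 fold change 0.12; edgeR adjusted p = 0.0217). RPL37, RPL37A and RPL32, all of the large subunit, had log2 fold changes of 0.11 each, with edgeR adjusted p of 0.0218, 0.0195 and 0.0177. These 4 large subunit genes lost the call without SOX2 siRNA replicate 2 and without control replicate 2. They differed in the other losses: RPL37 and RPL37A also lost it without control replicate 3, and RPL37, RPL32 and RPL35A without SOX2 siRNA replicate 3. RPL35, at the mouth of the tunnel where new proteins leave, had a log2 fold change of 0.10 (edgeR adjusted p = 0.0411), and RPS18, in the head of the small subunit, one of 0.0954 (edgeR adjusted p = 0.0414). RPL35 and RPS18 kept the call only without SOX2 siRNA replicate 1, and with upper-quartile factors their adjusted p was 0.0718 and 0.0717.

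By subunit, 13 of 46 large subunit genes were called (28.3%), 10 higher (21.7%) and 3 lower (6.52%), with a median log2 fold change of 0.0129. Among all tested genes 28.2% were called, 14.8% higher and 13.4% lower, so the share called in the large subunit was that of all genes. Of 31 small subunit genes 5 were called (16.1%), 3 higher (9.68%; RPS3A, RPS15A, RPS18) and 2 lower (6.45%; RPS16, RPS6), with a median of 0.00862. The medians differed by less than the shifts between libraries of a group. Upper-quartile factors turned the 2 medians to -0.00731 and -0.0114. Without control replicate 2 the large subunit had 5 higher and 6 lower, without SOX2 siRNA replicate 2 it had 5 and 1, without SOX2 siRNA replicate 3 it had 6 and 3, and without control replicate 3 it had 7 and 1. The small subunit had 1 higher without control replicate 2 and 1 without SOX2 siRNA replicate 3, and 1 lower without control replicate 1 or 3 or SOX2 siRNA replicate 1 or 2. A difference between the subunits in the share called was not tested.

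Genes whose proteins work together in the ribosome did not all pass the test. RPLP0, RPLP1 and RPLP2 form the flexible stalk that stands on RPL12. RPLP0 was at 1787 ± 73.5 and 1679.8 ± 29.6 CPM (log2 fold change -0.089; edgeR adjusted p = 0.0769). RPLP1 was at 525 ± 30.2 and 499.7 ± 7.04 CPM and RPLP2 at 217 ± 8.29 and 218 ± 4.03 CPM (n = 3, SD; edgeR adjusted p = 0.208 and 0.888). None of the 3 passed the test, while RPL12 did. RPLP0, which like RPL12 had a negative value, passed with upper-quartile factors (adjusted p = 0.0192), with DESeq2 (0.0395) and with GC and length offsets (0.0378). A difference between RPL12 and these was not tested.

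RPL5 and RPL11 travel with the 5S ribosomal RNA and, like RPL23, bind MDM2 when free of ribosomes, which stabilises p53. RPL5 was at 978 ± 11.7 and 967 ± 18.1 CPM (log2 fold change -0.0165, 95% interval -0.0847 to 0.0518; edgeR adjusted p = 0.762). RPL11 was at 573 ± 10.8 and 597 ± 17.5 CPM (log2 fold change 0.0601, 95% interval -0.0122 to 0.13; edgeR adjusted p = 0.217). RPL23 was at 677 ± 7.41 and 701 ± 31.8 CPM (edgeR adjusted p = 0.342). The 3 MDM2 partners thus had overlapping libraries, and none was called in the main fit. RPL11 passed with GC and length offsets (edgeR adjusted p = 0.0362). MDM2 itself fell, from 147, 155 and 152 CPM to 124, 124 and 129 CPM (log2 fold change -0.27; edgeR adjusted p = 3.04e-05).

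RPS19 and RPS26 are, with RPL35A, RPL5 and RPL11, genes changed in Diamond-Blackfan anaemia. RPS19 was at 435 ± 20.8 and 431 ± 4.81 CPM (log2 fold change -0.0154; edgeR adjusted p = 0.810). RPS26 was at 151 ± 3.78 and 143 ± 5.83 CPM, without overlap of the libraries but not past the threshold (log2 fold change -0.0858; edgeR adjusted p = 0.121; 0.0405 with upper-quartile factors). RPS29, a small zinc-binding protein of the small subunit, was named for its error, after its values were seen. It had 165, 130.1 and 149 CPM in control and 170.3, 169.8 and 169 CPM after SOX2 siRNA. The control libraries spread far more than the knockdown libraries, and the log2 fold change of 0.20 had the largest error of the family (SE 0.0786, 95% interval 0.0101 to 0.38; edgeR adjusted p = 0.115). DESeq2's Wald test gave RPS29 an adjusted p of 0.00762, so its call depends on the tool.

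Levels were compared between genes only per length, as CPM per kilobase of coding sequence in GENCODE 29. In control libraries the median over the 77 genes was 1203, with 1181 for large and 1219 for small subunit genes. RPL41, a peptide of the large subunit with 75 bases of coding sequence, was highest at 14236 ± 268, followed by RPL39 at 2247 ± 70.8 and RPL37A at 2187 ± 48.8 (SD, n = 3). The lowest were RPS26 at 439 ± 11.0, RPS15 at 456 ± 20.1 and RPS21 at 518 ± 43.3. Reads also fall outside coding sequence, which raises this value for genes with short coding sequence. Per kilobase of the annotated transcript RPL41 was still in rank 1, but RPL39 was in rank 28 and RPL37A, with an annotated length of 3647 bases, in rank 72; RPS26, RPS15 and RPS21 were in ranks 76, 60 and 62.

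The highest and lowest levels per coding kilobase were 32.4-fold apart, and 5.12-fold without RPL41. The 90th and 10th percentiles were 2.7-fold apart. Of 76 neighbouring pairs in the order of levels, 67 overlapped between the control libraries, so most neighbours cannot be ordered. The order after SOX2 siRNA was nearly that in control (Spearman's rho 0.984 over 77 genes, a description, since both groups share the genes' lengths and base composition). Without regard to length, members had 129 to 1873 CPM in control, and even the lowest exceeded 90.4% of tested genes. None of the 6 genes at the ends of the order per coding kilobase except RPL37A was called in the main fit. With GC and length offsets RPL39 and RPS21 passed (edgeR adjusted p = 0.0179 and 0.0301). RPS26 passed with upper-quartile factors (edgeR adjusted p = 0.0405). RPL41 was at 1068 ± 20.1 and 1104 ± 56.7 CPM and RPL39 at 344 ± 10.8 and 358 ± 8.01 CPM (n = 3, SD; edgeR adjusted p = 0.392 and 0.246). RPS15 was at 198 ± 8.72 and 212 ± 4.35 CPM and RPS21 at 129 ± 10.8 and 139 ± 1.48 CPM (n = 3, SD; edgeR adjusted p = 0.0706 and 0.120).

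Fold changes were only weakly related to other properties of the genes. Over the 77 genes, Pearson's r with log2 coding length was -0.20 (Spearman's rho -0.19), with GC content -0.14 (rho -0.11) and with log2 control CPM -0.24 (rho -0.22). Over the 46 large subunit genes rho was -0.32 with coding length and -0.30 with control CPM. Over the 31 small subunit genes it was 0.03 and -0.09. Control CPM also enters the fold change, so these 2 measures are not independent. The points share the same 6 libraries and no test was made.

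Ribosomal protein genes have many processed pseudogenes, near copies to which reads can be assigned. The table names 1225 such copies, of which 623 had a count and 102 were tested. Together they held 1.94% as many counts as the genes themselves. For 50 of the 77 genes the copies held under 1% of the gene's own count, and for 3 over 10%: RPL22 (30.9%), RPL39 (15.3%) and RPL21 (12.5%). For RPL22 the value with its copies added was a log2 fold change of -0.11 (edgeR adjusted p = 0.0201), and its most counted copy, RPL22P1, was at 129.7 ± 9.49 and 122 ± 7.12 CPM (SD, n = 3). With copies added to every gene, the 18 calls were the same genes. By GENCODE 29, 20 members share exon sequence with a gene on the opposite strand and 15 with one on the same strand. Reads of such pairs, and of copies, are uncertain between the genes.

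Paralogs are second genes for some ribosomal proteins, several of them tissue-restricted. Of 8, 7 were tested, 2 were called higher and 0 lower (28.6%, beside 28.2% of all tested genes), and RPL10L had 0 counts in every library. RPL7L1 was at 196 ± 4.75 and 216 ± 5.95 CPM (SD, n = 3; log2 fold change 0.15, SE 0.0362; edgeR adjusted p = 0.00580, 0.0579 without SOX2 siRNA replicate 2). RPL22L1, which can take the place of RPL22 in the ribosome, had 76.3, 71.3 and 74.5 CPM in control and 77.9, 81.5 and 87.4 CPM after SOX2 siRNA. Its groups did not overlap (log2 fold change 0.15, SE 0.0470; edgeR adjusted p = 0.0232), but the call was lost without control replicate 2 or 3 or SOX2 siRNA replicate 2 or 3, with adjusted p from 0.0591 to 0.134. The other 5 tested paralogs, RPL3L, RPL36AL, RPL26L1, RPL39L and RPS27L, had edgeR adjusted p from 0.404 to 0.742. RPS27L was called lower (adjusted p = 0.0303) without SOX2 siRNA replicate 3.

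RPL22 and RPL22L1 therefore had values in opposite directions. Per kilobase of coding sequence, RPL22L1 stood at 19.2%, 17.9% and 17.9% of RPL22 in the control libraries and at 21.1%, 21.8% and 23.4% after SOX2 siRNA. The groups did not overlap, with means of 18.3% ± 0.765 and 22.1% ± 1.17 (SD, n = 3). This had to follow, since the groups stood apart for each of these genes, in opposite directions, so the ratio is no further result. Counts of the copy RPL22P1 were not added to RPL22 here. For the other 6 pairs the libraries overlapped. RPL36AL stood at 27.9% ± 0.900 and 27.7% ± 0.0793 of RPL36A, RPL7L1 at 19.1% ± 0.593 and 19.9% ± 0.822 of RPL7, and RPS27L at 13.7% ± 0.0824 and 14.1% ± 1.06 of RPS27 (SD, n = 3).

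Ribosomal proteins are also encoded by genes with other names, and neither FAU nor RACK1 passed edgeR's test. FAU, which encodes a ubiquitin-like protein fused to a small subunit protein, was at 128 ± 9.42 and 119 ± 4.17 CPM (log2 fold change -0.11; edgeR adjusted p = 0.124). RPS27A, a member that encodes ubiquitin fused to a small subunit protein, was at 654 ± 18.1 and 664 ± 26.0 CPM (n = 3, SD; edgeR adjusted p = 0.721). RACK1, a signalling scaffold on the small subunit, was at 904 ± 15.5 and 858 ± 10.1 CPM without overlap (log2 fold change -0.0762; edgeR adjusted p = 0.0903).

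Transcripts of the same translation machinery were set beside the family as lists written from general knowledge. Of 26 genes for translation factors and other transcripts known for an oligopyrimidine start, 13 were lower and 2 higher (57.7% called, beside 28.2% of all tested genes), with a median log2 fold change of -0.0899. EIF2S3, a subunit of the factor that brings the initiator transfer RNA, fell from 575 ± 7.81 to 481 ± 3.26 CPM (log2 fold change -0.26; edgeR adjusted p = 7.66e-06). EIF4B, a cofactor of the initiation helicase, fell from 944 ± 24.9 to 806 ± 26.3 CPM (edgeR adjusted p = 0.000101), and VIM, the intermediate filament vimentin, from 2879 ± 129.6 to 2193 ± 161 CPM (edgeR adjusted p = 0.000160). CCNG1, a p53 target, fell from 468 ± 18.5 to 402 ± 5.99 CPM (edgeR adjusted p = 0.000164). These 4 were called with each library left out. The count of lower genes ran from 7, without control replicate 3, to 12, and that of higher genes was 1 without control replicate 2 or SOX2 siRNA replicate 3. Ribosomal protein genes had 5 of 77 lower. The starts of the listed transcripts were not examined. A difference between the lists was not tested.

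Mitochondrial ribosomal protein genes, which encode proteins of the ribosome inside mitochondria, had 3 higher and 7 lower of 78. These were 12.8% called, beside 28.2% of all tested genes, and the list's median was 0.00243. MRPS6 fell from 69.6 ± 1.83 to 56.0 ± 0.750 CPM (log2 fold change -0.31; edgeR adjusted p = 1.96e-05), and MRPL44 and MRPS30 each had a log2 fold change of -0.27; MRPL23 had one of -0.30 but lost the call without control replicate 2 or SOX2 siRNA replicate 2. No higher call was left without control replicate 2 or SOX2 siRNA replicate 2 or 3, 1 was left without control replicate 3, and 5 were made without SOX2 siRNA replicate 1. Without control replicate 2 there were 3 lower, and without SOX2 siRNA replicate 2 there were 4.

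Of 54 ribosome biogenesis factors, which build the subunits in the nucleolus, 4 were higher and 4 lower, with a median of -0.0275. The share called was 14.8%, beside 28.2% of all tested genes. NIP7, a factor in late subunit assembly, was at 49.9 ± 1.21 and 57.4 ± 2.98 CPM (n = 3, SD; edgeR adjusted p = 0.00432) and was called with each library left out. NOP10, GRWD1 and NOL6 were higher by log2 fold changes of 0.21, 0.17 and 0.15, but GRWD1 and NOL6 lost the call without control replicate 2 or SOX2 siRNA replicate 2 or 3, and NOP10 without control replicate 1 or 2 or SOX2 siRNA replicate 3. The 4 lower genes were NPM1, the abundant nucleolar protein nucleophosmin, from 1649.7 ± 38.1 to 1533 ± 42.4 CPM (edgeR adjusted p = 0.0288), DDX21 from 343 ± 10.1 to 313 ± 19.5 CPM (0.0337), UTP20 and UTP15. NPM1 kept the call only without SOX2 siRNA replicate 3 or control replicate 1, DDX21 and UTP20 only without SOX2 siRNA replicate 3, and UTP15 lost it without SOX2 siRNA replicate 2 or control replicate 1. The counts of this list moved with the libraries: 7 were higher without SOX2 siRNA replicate 1, 2 without replicate 2, 1 without replicate 3 and 1 without control replicate 2. Lower genes numbered 6 without SOX2 siRNA replicate 3, 2 without control replicate 1, 0 without SOX2 siRNA replicate 2 and 1 with each other library left out.

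Of 14 chaperones and partners of free ribosomal proteins, 0 were higher and 3 lower by edgeR, with a median of 0.0182. The share called was 21.4%, beside 28.2% of all tested genes, and 5 had an unadjusted edgeR p under 0.05. The 3 were MDM2, NAP1L1 (log2 fold change -0.18; edgeR adjusted p = 0.00106), which is also among the translation transcripts above, and the importin IPO5 (-0.13; edgeR adjusted p = 0.00899, 0.0618 without control replicate 3). Of 30 regulators of ribosomal protein synthesis, 10 were higher and 2 lower (40.0% called, beside 28.2% of all genes), with a median of 0.0772. Among them the kinase AKT1 rose from 78.2 ± 4.5 to 102 ± 1.44 CPM (edgeR adjusted p = 3.59e-06), and MXD4, a MYC antagonist, rose from 30.7 ± 1.39 to 38.8 ± 1.93 CPM (edgeR adjusted p = 0.000156). MYCL, a MYC family member, fell from 5.50 ± 0.202 to 2.58 ± 0.587 CPM (edgeR adjusted p = 3.47e-05), and EIF4EBP2, an inhibitor of cap-dependent initiation, from 446 ± 6.33 to 388 ± 9.06 CPM (edgeR adjusted p = 0.000193). The other MYC family members rose: MYCN from 74.3 ± 4.26 to 90.4 ± 3.77 CPM (edgeR adjusted p = 0.000219), and MYC from 5.05 ± 0.919 to 7.76 ± 1.36 CPM (edgeR adjusted p = 0.0119). The call of MYC was lost without SOX2 siRNA replicate 1 (0.0501) or control replicate 2 (0.0518). Of the other higher regulators, MAX was called in 2 of the 6 fits with a single library left out. ULK1 was called in 3 of them, and RPTOR and ZNF692 in 5 each.

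**Figure D4:**
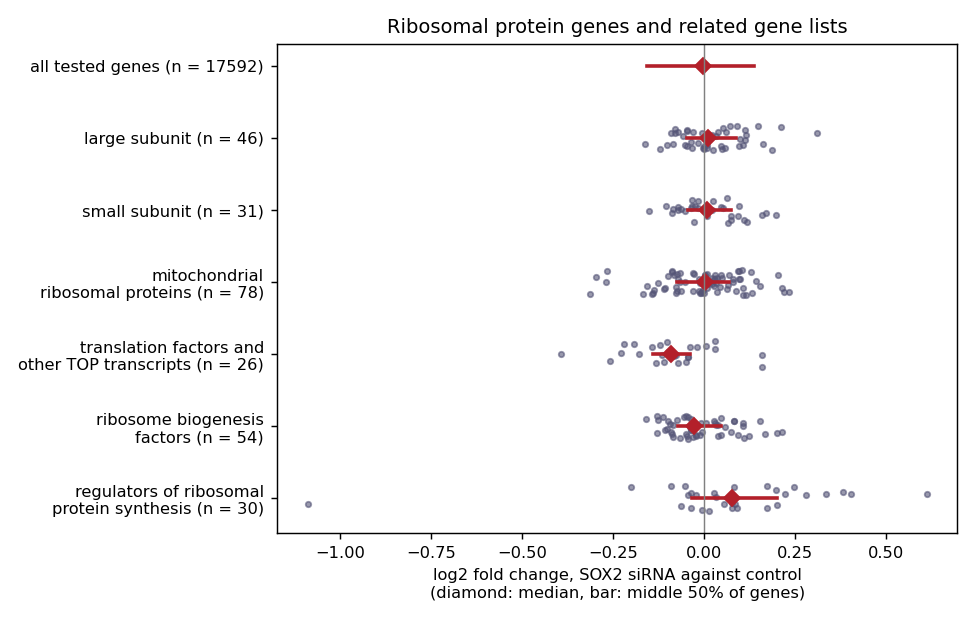
Log2 fold change after SOX2 siRNA against control (horizontal axis) for all tested genes (no points drawn), for the large and small subunit genes and for 4 related lists. Points are genes, diamonds medians and bars the middle 50% of genes; the subunits' medians of 0.0129 and 0.00862 sit at zero, and that of the translation transcripts at -0.0899.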

How the data were processed

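mRNA of 3 control siRNA and 3 SOX2 siRNA libraries was sequenced from KAPA mRNA HyperPrep libraries, per the labels' protocols. The authors deposited raw counts for each gene symbol, which are whole numbers with unequal totals per library. The submitters' processing notes name bcl2fastq 2.20.0, STAR 2.7.3a, Salmon 0.14.1, DESeq2 1.28.1 and GRCh38.p13 with no role or order; the counting program, the use of strand and the annotation are not given in the sources used here. Groups were taken from the treatment label.

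Genes were kept by filterByExpr (minimum count 10), scaled by TMM and tested with edgeR 4.0.16 (glmQLFit with robust=TRUE, glmQLFTest, group only) in R 4.3.3, with Benjamini-Hochberg adjusted p-values over the 17592 genes tested, called below 0.05. The biological coefficient of variation was 4.67%. CPM use the scaled library sizes, fold changes are SOX2 siRNA against control, and intervals are 95%. Intervals and the 3-count floor rest on read counts without molecular identifiers, so the floor covers counting error only. The procedure was tested on simulated data. Alternatives were other scalings, filters, DESeq2 1.42.0, limma-voom (limma 3.58.1), robust=FALSE, single libraries left out, the replicate number as a block, GC and length offsets, and copies added.

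GENCODE 29 gave coding length, GC content and overlaps for 77 of 77 ribosomal protein genes and 96.3% of tested genes by symbol; the coding length is that of the shortest best-supported principal transcript. Starts came from RefSeq promoters, GRCh38.p14, which held 62 of the 77 genes. Other computations used Python 3.11.15 with pandas 2.3.3, scipy 1.17.1, numpy 2.4.6 and matplotlib 3.10.9.

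The members and all lists were chosen with earlier results of these data known. Genes named are SOX2, every member called, the 3 highest and 3 lowest members per length, RPL5, RPL11, RPL23, RPS6, RPS19, RPS26 and RPL35A, the paralogs, FAU and RACK1, and up to 4 called genes of each other list by smallest p, except what is not reported here. RPLP0, RPLP1, RPLP2, RPS27A, RPS29, MYC, MYCN, NPM1, DDX21, UTP15, UTP20, LIAS and NKIRAS1 were named after their values were seen. No library was left out.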

Additional observations from a re-analysis of the deposited data

How the results depend on the processing

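The 27 ribosomal protein genes named by rule, without those named after their values were seen, had 513 values under 19 alternatives. Of these, 3 had the other sign, all of genes not called. They were RPL5 with GC and length offsets (0.016, and 0.0159 with the block) and RPS19 without control replicate 1 (0.0234). Members outside the 27 are not in this count. RPLP2, 1 of them, changed sign from 0.00945 to -0.0107 with upper-quartile factors and to -0.0631 with GC and length offsets. Of the 513, 459 kept their side of the threshold, 43 no longer passed and 11 newly passed. The family's median log2 fold change ran from -0.0107 with upper-quartile factors, which moved the median of all genes to -0.0211, to 0.0284 without SOX2 siRNA replicate 1. With upper-quartile factors, 12 members were lower (7 large, 5 small subunit), 1 mitochondrial ribosomal protein was higher, 1 of the ribosomal proteins with other names was lower and 8 biogenesis factors were lower. Total counts alone gave 10 lower (7 large). With no filter beyond 1 count there were 3 lower (1 small) and 6 small subunit genes higher. DESeq2's Wald test gave 9 lower (7 large), limma-voom 8 (6 large) and robust=FALSE 5 large subunit genes lower.

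Offsets for GC and length, with no replicate block, gave 17 higher and 11 lower (8 large), 28 members beside 5317 genes in all. With the replicate block they gave 22 higher (8 small) and 10 lower (8 large), 32 members beside 5214 genes. The main fit called 18 members beside 4964 genes. In both offset fits the family's share called was above that of all genes, while in the main fit it was below. DESeq2's Wald test called 23 members beside 3640 genes. The replicate numbers were not taken as pairing the samples, since deviations of same-numbered libraries correlated at 0.0868, -0.0377 and -0.0311 over all genes, against -0.1201 to 0.1549 for different numbers. Over the members alone the values were 0.4053, 0.1549 and 0.3199, against -0.2912 to 0.0367, at most a hint from the data and not the design. Each gene's deviations cancel over the 3 libraries of a group, so high values for some pairs force low values for others. The contrast is thus partly built in and cannot decide whether the numbers pair the libraries. With the replicate block alone 22 members were called, 15 higher and 7 lower: all 18, with RPL7 and RPS7 (higher) and RPL14 and RPS27 (lower) added, and 5177 genes in all, beside 4964.

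With each library left out in turn, members called ran from 6 to 17 higher and from 2 to 8 lower. Calls over all genes ran from 3760 to 4863, beside 4964 in the main fit. Large subunit genes ran from 5 to 13 higher and 1 to 6 lower, and small subunit genes from 1 to 4 higher and 1 to 3 lower. Higher and lower calls ran from 0 to 5 and 3 to 7 for mitochondrial ribosomal proteins, 0 to 2 and 0 to 1 for paralogs, 1 to 2 and 7 to 12 for translation transcripts, and 1 to 7 and 0 to 6 for biogenesis factors. Chaperones had 0 to 1 higher. The cause of these moves was not tested. Members had at least 2947 counts in every library.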

Other observations

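The 3 ribosomal protein genes on chromosome 4 (RPL34, RPL9 and RPS3A) were all called higher, with log2 fold changes of 0.17 to 0.31, while the 602 other tested genes there had a median of -0.0158 and 13.3% called higher. On chromosome 3, 4 of 7 were higher (RPL15, RPL29, RPL32 and RPL35A), with a median of 0.11, beside -0.00839 and 16.1% called higher for 939 other genes. On chromosome 19, which holds the most members, 2 of 12 were lower (RPS16 and RPL13A) and the others not called, beside 12% higher and 13.9% lower of 1183 other genes. Chromosomes were looked at after the values were seen, and no test was made.

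Readthrough genes join a ribosomal protein gene to its neighbour, and 3 were tested and not called. RPL17-C18orf32 was at 19.4 and 20.3 CPM, RPL36A-HNRNPH2 at 8.88 and 9.05 CPM and RPS10-NUDT3 at 13.3 and 12.8 CPM in control and SOX2 siRNA means.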
